A study of Mus musculus with 8 samples.

Results

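The transcripts of 10 genes of transforming growth factor beta (TGF-beta) signaling were followed as C2C12 myoblasts passed from proliferation to differentiation. The genes were listed by name, with earlier results of these data known: the ligands *Tgfb1*, *Tgfb2* and *Tgfb3*, the receptors *Tgfbr1*, *Tgfbr2* and *Tgfbr3*, and the Smads *Smad2*, *Smad3*, *Smad4* and *Smad7*. They are 10 of the 27179 genes in the expression table, and all 10 passed the filter on low values that left 11406 genes for testing. C2C12 is an immortalized mouse myoblast line whose cells multiply in serum-rich medium and, on serum withdrawal, leave the cell cycle and form multinucleate myotubes. GM cells were sampled at 50% confluence on collagen-coated dishes in growth medium with 10% fetal bovine serum. 3d DM cells had passed 90% confluence, by the sample records, and had spent 3 days in medium with 2% horse serum, so the states differ in serum and in density as well as in differentiation. Each state has 2 input RNA libraries and 2 libraries immunoprecipitated with an antibody against N6-methyladenosine (m6A). Nothing in the records says that the 2 libraries of a state came from separate cultures, so p-values measure only the spread between these libraries.

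TGF-beta ligands are secreted bound to a latency peptide and must be released before they can signal. Released ligand binds the type II receptor, which phosphorylates the type I receptor, and the type I receptor phosphorylates *Smad2* and *Smad3*, which join *Smad4* and enter the nucleus to change transcription. The pathway is known as a strong inhibitor of myoblast differentiation and as a driver of matrix production in muscle. m6A is a methyl mark on adenosines of mRNA that is deposited mostly in DRACH sequences (D = A, G or T, R = A or G, H = A, C or T), often near stop codons and in 3′ UTRs.

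The sequences below show RNA under m6A peaks of these genes. They were read from mm10 inside the stretch that the peaks of all 4 immunoprecipitated libraries have in common. For each such locus, apart from that of *Smad2*, the GGACT site is shown, or where there is none the DRACH site nearest to the middle of its stretch, with 8 bases on either side. Capitals mark the DRACH letters, and a match does not show that its adenosine is methylated. A library can have several peaks at a locus, and the *Tgfbr2* site lies outside the peaks whose folds are given further on. The *Smad3* site lies within such a peak only in 3d DM replicate 1.
Tgfb1, 5′ UTR, chr7:25687547-25687567, plus strand: gcatcccaGGACCctctctcc
Tgfb1, 3′ UTR, chr7:25705013-25705033, plus strand: gtatttaaGGACAcctgcacc
Tgfb2, 3′ UTR, chr1:186624763-186624783, minus strand: ttgttataGGACTaagcaagt
Tgfb3, coding sequence, chr12:86077831-86077851, minus strand: accacgttGGACTtcggccac
Tgfb3, 3′ UTR, chr12:86057489-86057509, minus strand: tagcgagtGGACAttgtgagt
Tgfbr2, coding sequence, chr9:116109840-116109860, minus strand: aagcatgaGAACAtcctgcag
Smad3, 3′ UTR, chr9:63650083-63650103, minus strand: ggatttatGAACAgctgtgtc

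Of these sequences, those of *Tgfb2* and of the *Tgfb3* coding sequence hold GGACT, the most common methylated form of the motif. The A of the *Tgfb1* 3′ UTR site lies 83 nt after the first base of the stop codon, that of *Tgfb3* 283 nt after it, and that of *Tgfb2* 677 nt after it. The annotation is GENCODE M21.

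The expression values are normalized signals with no known depth, as every column sums to between 12534657 and 12536233, and a value has no unit beyond that common total. The largest entry alone held from 24.4% to 41.3% of a column's total, depending on the library. Among the marker genes of the states, *Myh3* (embryonic myosin heavy chain) rose from 1067.7 and 273.0 in GM to 33484.7 and 51673.6 in 3d DM. *Mymk*, *Acta1*, *Ckm* and *Myog*, which mark fusing or differentiating muscle, and *Des*, the muscle intermediate filament, also rose, with log2 fold changes of 4.82, 5.56, 5.38, 4.06 and 1.36. *Mki67*, *Ccnb1* and *Top2a*, which mark dividing cells, and *Myf5*, which marks undifferentiated myoblasts, fell, with log2 fold changes of -2.63, -3.08, -2.69 and -2.14, and *Myod1* did not pass the test (log2 fold change -0.10, adjusted p = 0.921). The 2 GM libraries were not alike in these markers: GM replicate 1 had 1007.8 of *Myog*, 697.8 of *Mymk* and 1634.3 of *Acta1*, against 220.8, 101.4 and 439.6 in GM replicate 2. Of 10 markers of adipocytes, endothelium, leukocytes, epithelium and fibro-adipogenic cells, 8 were below 5.5 in every library. The exceptions were *Cdh1* (3.1, 5.01, 21.8 and 29.6) and *Pdgfra* (97, 36.2, 68.5 and 64.7), and the list summed to 101 and 42.2 in GM, compared with 92.7 and 96.5 in 3d DM. In RNA from whole cultures, fewer cells of a kind and less RNA per cell cannot be told apart.

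To see which components of the pathway changed with the state, 3d DM was compared with GM in the input libraries with limma on log2(value + 1). *Tgfb3* and the type II receptor *Tgfbr2* rose and no other member passed the test, so 2 of 10 members were called higher and 0 lower. Over all tested genes 7.01% were called higher and 9.96% lower at an adjusted p under 0.05. The median log2 fold change of the 10 members was 0.38 and that of all tested genes was -0.22, and 6 of 10 members lay above 0 against 36.8% of all tested genes. When the columns were rescaled by median-of-ratios factors, the median of all genes was 0.01 and that of the members 0.61. Again 6 of 10 members then lay above 0, while the share of 36.8% goes with the negative median of the deposited values. After rescaling 4 members were called, *Tgfb2*, *Tgfb3*, *Tgfbr2* and *Smad3*, all higher in 3d DM, while 12% of all tested genes were called higher and 11.2% lower. With the deposited values 5 of 10 members had both 3d DM libraries above both GM libraries (16.8% of all tested genes), and 0 had both below (37% of all tested genes).

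**Figure D1:**
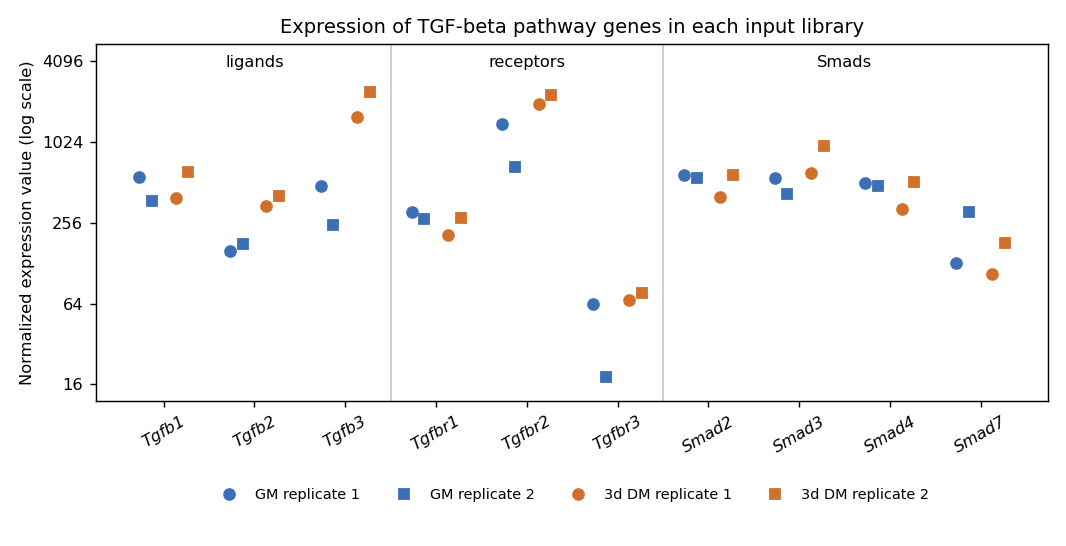
Normalized expression value (log scale) of each gene in the 2 GM and the 2 3d DM input libraries, 1 point per library, with circles for replicate 1 and squares for replicate 2. Both 3d DM points lie above both GM points for *Tgfb2*, *Tgfb3*, *Tgfbr2*, *Tgfbr3* and *Smad3*, and the states overlap for the other 5 genes.

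Among the ligands, *Tgfb3* (chromosome 12) made the largest change of the 10 genes. Its value was 481.7 and 247.9 in the GM libraries and 1582.1 and 2400.8 in the 3d DM libraries. Both 3d DM libraries lay far above both GM libraries, although the GM libraries themselves differed. The log2 fold change was 2.49 (SE 0.43, limma adjusted p = 2.18e-07), a 5.63-fold rise. Means were 364.8 ± 165.4 in GM, against 1991.5 ± 578.9 in 3d DM (SD, n = 2 in each state). The SE was set by the spread of all tested genes at that intensity, and the residual SD of *Tgfb3* itself was larger, at 0.56. With only its own spread, in a t test on 2 residual degrees of freedom, its adjusted p was 0.379. *Tgfb3* was still called without GM replicate 1, the library with more of the differentiation markers (log2 fold change 2.97, adjusted p = 0.000365), and without GM replicate 2 (2.01, adjusted p = 0.0353). It was not called when 3d DM replicate 1 (2.79, adjusted p = 0.0578) or 3d DM replicate 2 (2.19, adjusted p = 0.0668) was left out. The RNAs nearest to *Tgfb3* over the 4 input libraries, by Euclidean distance of centred log2 values, were *Trp53cor1* (distance 0.133), a noncoding RNA, *Lrp4* (0.142), a receptor of the LDL receptor family, and *Ephb3* (0.159), an ephrin receptor. With only 4 libraries many genes can lie close to any such pattern.

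*Tgfb2* (chromosome 1) was higher in 3d DM by a smaller step. It was measured at 158.6 and 177.6 in GM, compared with 343.0 and 403.8 in 3d DM, so the libraries of each state lay close together and the states were apart. Its log2 fold change of 1.14 (SE 0.47) had a limma adjusted p of 0.0735 with the deposited values and passed after rescaling (1.37, adjusted p = 0.012). The standard errors of the deposited fit follow the intensity of a gene and not its own replicates, so the tight replicates of *Tgfb2* did not narrow its interval.

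*Tgfb1* (chromosome 7), the ligand after which the family is named, had 557.3 and 374.3 in GM, against 388.5 and 611.5 in 3d DM. The states overlapped, with means of 465.8 ± 129.4 and 500.0 ± 157.7 (SD, n = 2 each). The log2 fold change was 0.09, with a 95% interval of -0.78 to 0.97 (limma adjusted p = 0.934).

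*Tgfb3* made up a larger part of the ligand transcripts in both 3d DM libraries than in either GM library, a comparison within each library that no scaling of the columns can change. Levels were divided by the length of the principal transcript (2175 nt for *Tgfb1*, 5116 nt for *Tgfb2* and 3383 nt for *Tgfb3*). In GM, *Tgfb1* made up 59.6% and 61.4% of the 3 ligands per kb and *Tgfb3* 33.1% and 26.2%. In 3d DM, *Tgfb1* made up 25% and 26.3% and *Tgfb3* 65.6% and 66.3%. On this length *Tgfb1* led in both GM libraries and *Tgfb3* in both 3d DM libraries. The ratio of *Tgfb3* to *Tgfb1* per kb was 0.556 and 0.426 in GM, compared with 2.62 and 2.52 in 3d DM, with an exact two-sided permutation p of 0.333, the smallest that 2 against 2 libraries allow. *Tgfb2* stayed between 7.22% and 12.4% in all 4 libraries, with overlapping states. The lead of *Tgfb1* in GM depends on the length used, as the gene model of the counting is not given in the sources used here: over all annotated exons of each gene (5042 bp for *Tgfb1*) the ratio was 1.29 and 0.987 in GM, against 6.07 and 5.85 in 3d DM, and the rise in the ratio is the same on either length.

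**Figure D2:**
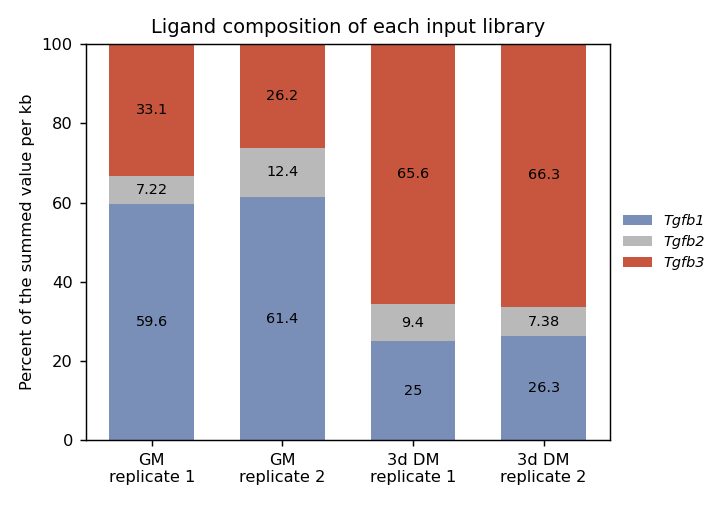
Share of each ligand in the summed value per kb of principal transcript of *Tgfb1*, *Tgfb2* and *Tgfb3*, in percent, for each of the 4 input libraries. *Tgfb1* is the largest share in both GM libraries (59.6% and 61.4%) and *Tgfb3* in both 3d DM libraries (65.6% and 66.3%).

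Among the receptors, *Tgfbr2* (chromosome 9), the type II receptor that binds ligand first, had 1389.1 and 663.4 in GM, against 1964.5 and 2293.1 in 3d DM. On the log2 scale GM replicate 1 lay closer to both 3d DM libraries than to GM replicate 2, and the states did not overlap. The log2 fold change was 1.14 (SE 0.42, limma adjusted p = 0.0411) and 1.37 after rescaling (adjusted p = 0.0257). The call with the deposited values rested on every library: without GM replicate 1 it was 1.68 (adjusted p = 0.0978), without GM replicate 2 0.61 (adjusted p = 0.842), without 3d DM replicate 1 1.26 (adjusted p = 0.279) and without 3d DM replicate 2 1.03 (adjusted p = 0.244). With the replicate number as a block the adjusted p was 0.215. The residual SD of *Tgfbr2* itself was 0.54, larger than the SE used. With only its own spread, in a t test on 2 residual degrees of freedom, its adjusted p was 0.485.

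*Tgfbr1* (chromosome 4), the type I receptor kinase that phosphorylates *Smad2* and *Smad3*, had 310.1 and 272.0 in GM, compared with 206.3 and 277.5 in 3d DM. Its states overlapped, and its log2 fold change of -0.28 (95% interval -1.19 to 0.63) did not pass (limma adjusted p = 0.791). After rescaling the value was -0.05, with an interval of -0.51 to 0.41. The ratio of *Tgfbr2* to *Tgfbr1* per kb, which is free of column scaling, was 7.42 and 4.04 in GM, against 15.8 and 13.7 in 3d DM (exact two-sided permutation p = 0.333), so every 3d DM library held more type II receptor transcript per type I than either GM library.

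*Tgfbr3* (chromosome 5), betaglycan, a coreceptor that presents ligand to the type II receptor, was the lowest of the 10 genes. It had 63.4 and 18.1 in GM, compared with 67.6 and 76.7 in 3d DM. GM replicate 2 was the only library apart from the others, and GM replicate 1 was close to 3d DM. The log2 fold change of 1.06 (95% interval -0.06 to 2.18) did not pass (limma adjusted p = 0.227). It was 1.94 without GM replicate 1 (adjusted p = 0.0483) and 0.18 without GM replicate 2 (adjusted p = 0.98). GM replicate 1 was higher than GM replicate 2 for 8 of the 10 genes as deposited and for 5 after rescaling, and also for the differentiation markers, and the part of that difference in these results was not tested. A predicted gene on the same strand, Gm43422, shares 297 bp of exon with *Tgfbr3*, and reads there cannot be told apart by strand.

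No Smad passed the test with the deposited values, and *Smad3* alone among the 4 passed after rescaling. *Smad3* (chromosome 9), a receptor-regulated Smad that binds DNA directly, had 548.8 and 416.5 in GM, against 605.0 and 960.1 in 3d DM. Both 3d DM libraries were above both GM libraries, but the higher GM library was close to the lower 3d DM library. The log2 fold change was 0.67 (95% interval -0.19 to 1.53, limma adjusted p = 0.353) with the deposited values and 0.90 after rescaling (interval 0.47 to 1.33, adjusted p = 0.0178).

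*Smad2*, the other receptor-regulated Smad of this pathway, had 581.3 and 554.9 in GM, compared with 399.8 and 584.0 in 3d DM. *Smad4*, the common partner of both, had 509.8 and 481.7 in GM, against 323.2 and 516.1 in 3d DM. In each of them the GM libraries were close together and 3d DM replicate 1 was the low library. The log2 fold changes were -0.23 for *Smad2* (limma adjusted p = 0.82) and -0.28 for *Smad4* (adjusted p = 0.781), and after rescaling 0.00 and -0.05. After rescaling the 95% intervals were -0.42 to 0.42 for *Smad2* and -0.49 to 0.40 for *Smad4*. The ratio of *Smad3* to *Smad2* per kb was 1.5 and 1.19 in GM, compared with 2.4 and 2.61 in 3d DM (exact two-sided permutation p = 0.333).

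*Smad7*, the inhibitory Smad that the pathway induces and that blocks the type I receptor, had 128.9 and 308.0 in GM, against 106.8 and 181.6 in 3d DM. Replicate 2 was the higher library in each state, the states overlapped, and the log2 fold change of -0.51 (95% interval -1.46 to 0.43) did not pass (limma adjusted p = 0.573).

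**Figure D3:**
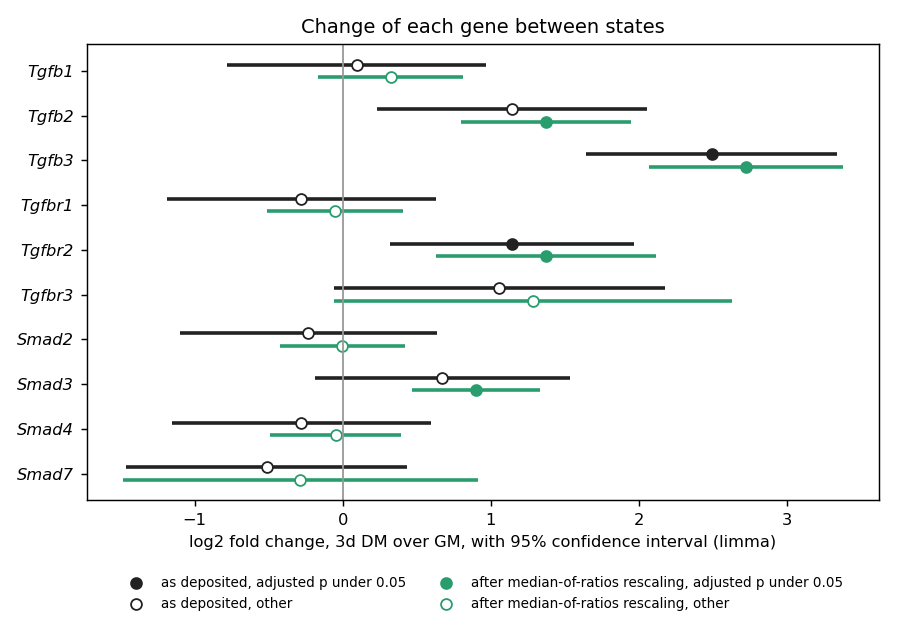
Log2 fold change of each gene, 3d DM over GM, with its 95% confidence interval from limma, for values as deposited (black) and after median-of-ratios rescaling (green). Filled points have an adjusted p under 0.05: *Tgfb3* and *Tgfbr2* as deposited, and *Tgfb2*, *Tgfb3*, *Tgfbr2* and *Smad3* after rescaling.

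Ordered by level per kb of principal transcript, a length on which the order depends, *Tgfbr2* stood highest in both states, at a mean of 295.2 ± 147.6 in GM, compared with 612.4 ± 66.8 in 3d DM (SD, n = 2). In GM it was followed by *Tgfb1* (214.2 ± 59.5), *Smad4* (146.5 ± 5.88), *Tgfb3* (107.8 ± 48.9), *Smad3* (94.8 ± 18.4), *Smad2* (70.2 ± 2.31), *Smad7* (51.1 ± 29.6), *Tgfbr1* (50.6 ± 4.69), *Tgfb2* (32.9 ± 2.62) and *Tgfbr3* (6.7 ± 5.27). The libraries of neighbours in that order overlapped except between *Tgfb1* and *Smad4*, *Smad3* and *Smad2*, *Tgfbr1* and *Tgfb2*, and *Tgfb2* and *Tgfbr3*. In 3d DM, *Tgfb3* (588.7 ± 171.1) moved from the fourth place to the second, with libraries that overlapped those of *Tgfbr2* and lay apart from those of *Tgfb1* (229.9 ± 72.5) in the next place. *Tgfbr3* stayed last, at 11.9 ± 1.06, apart from its neighbour *Smad7* (33.7 ± 12.4). The first place of *Tgfbr2* rests on its principal transcript of 3476 nt. Over all annotated exons of each gene (8187 bp for *Tgfbr2*) it is lost, to *Smad4* in GM and to *Tgfb3* in 3d DM.

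The wider pathway was described by 4 lists of genes that act before the receptors, at the receptors, beside the Smads and as targets. Genes of latency and activation, which hold or release the ligand outside the cell, were called higher in part. Of 14 listed genes 11 were tested, 5 were called higher and 0 lower, beside 7.01% and 9.96% of all tested genes. The median log2 fold change was 0.58 against -0.22 for all tested genes. After rescaling 4 were called higher and 0 lower, beside 12% and 11.2% of all tested genes. *Dcn* and Thbs1 were lost (limma adjusted p = 0.0911 for Thbs1) and Ltbp3, a latent ligand binding protein, was gained (adjusted p = 0.0285). Thbs1 and Ltbp3 are named because of these values. The largest rises in this list were those of *Dcn* (log2 fold change 2.59, limma adjusted p = 9.75e-07), *Itgb6* (2.41, adjusted p = 9.74e-06) and *Bgn* (1.93, adjusted p = 5.06e-05). *Itgb6* is a subunit of an integrin that releases ligand from latency, while *Dcn* and *Bgn* are matrix proteoglycans that bind the ligand. *Itgb6* went from 88.3 and 69.2 in GM to 334.7 and 524.2 in 3d DM, and *Bgn* from 1085.9 and 1105.9 to 3824.3 and 4590.2. *Dcn* had 429.9 and 17.1 in GM, against 409.1 and 684.9 in 3d DM, so its states overlapped, and it was not called after rescaling (adjusted p = 0.168).

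Coreceptors and receptor regulators held 0 calls in either direction among 10 tested genes of 12 listed. Over all tested genes 7.01% were called higher and 9.96% lower. The median log2 fold change of the list was -0.40 as deposited and -0.17 after rescaling. After rescaling 2 of the 10 genes were called, both lower in 3d DM, beside 12% of all tested genes called higher and 11.2% lower. Both are named here because of their values: *Cd109*, a coreceptor that antagonizes signaling (log2 fold change -0.88, limma adjusted p = 0.0241), and *Fkbp1a*, which binds the type I receptor (-0.74, adjusted p = 0.0328). Of the other Smads and Smad cofactors 12 of 14 were tested, and again 0 were called in either direction, before or after rescaling, with a median of -0.11 before it and 0.12 after it.

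In the list of TGF-beta target genes 7 were called higher and 1 lower among 17 tested of 20 listed, beside 7.01% and 9.96% of all tested genes. The counts were the same after rescaling, beside 12% and 11.2% of all tested genes, but the genes were not all the same. *Tagln*, whose states overlapped, was lost (limma adjusted p = 0.00483 as deposited and 0.275 after rescaling). *Junb* was gained (adjusted p = 0.221 as deposited and 0.0255 after rescaling). *Tagln* and *Junb* are named because of these values. The median log2 fold change of the list was 0.79 as deposited and 1.02 after rescaling. The largest rises were those of *Postn* (log2 fold change 4.21, limma adjusted p = 3.13e-16) and *Col1a1* (3.20, adjusted p = 4.74e-11), which encode matrix proteins, and of *Cdkn1a* (2.98, adjusted p = 1.08e-11), a cell-cycle inhibitor that is also part of muscle differentiation. *Postn* went from 25 and 55.2 in GM to 591.9 and 845.2 in 3d DM, *Col1a1* from 136.6 and 151.5 to 1155.3 and 1532.6, and *Cdkn1a* from 3444.5 and 1416.0 to 15897.3 and 19014.1. *Snai2*, a transcription factor, fell from 570.0 and 307.1 to 150.0 and 209.5 (log2 fold change -1.23, limma adjusted p = 0.0459). Many of these genes respond to other signals as well. Over the 4 lists together 13 genes were called, and 7 without GM replicate 1, 3 without 3d DM replicate 2 and 1 without 3d DM replicate 1.

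**Figure D4:**
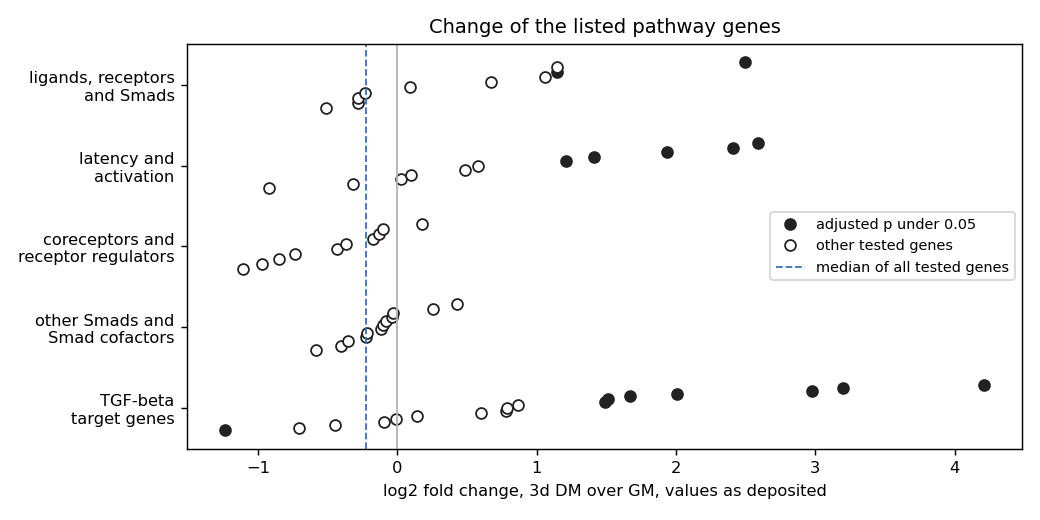
Log2 fold change, 3d DM over GM, of each tested gene in the 10 members and in the 4 lists, as deposited. Filled points have a limma adjusted p under 0.05, and the dashed line is the median of all tested genes (-0.22). The calls lie among the 10 members (2 higher), in latency and activation (5 higher) and among the target genes (7 higher and 1 lower).

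To ask whether the same transcripts carried m6A, the members were looked up in the 4 peak lists, each of which gives the enrichment of immunoprecipitated over input RNA per peak and transcript. *Tgfb1*, *Tgfb2*, *Tgfb3*, *Tgfbr2*, *Smad2* and *Smad3* had a peak in all 4 lists, as did 42% of the tested genes. *Tgfbr1* and *Tgfbr3* had a peak in no list, as did 24.9% of the tested genes. *Smad4* had peaks in 3 lists and none in that of 3d DM replicate 2. *Smad7* had peaks in the lists of GM replicate 1 and 3d DM replicate 1 and none in those of either replicate 2. The number of members with a peak was 8 and 7 in GM, compared with 8 and 6 in 3d DM (exact two-sided permutation p = 1). The lists hold no read numbers, so a gene without a peak cannot be called unmethylated, and *Tgfbr3* was also the lowest transcript of the 10.

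Joined where lines of a gene shared at least 1 bp of exon, the members' peaks made 24 loci, of which 8 were in all 4 lists, 7 in 2 or 3 and 9 in 1. Of those 9, 6 were in the list of 3d DM replicate 1 only and 3 in that of GM replicate 1 only, and the replicate 1 lists held 17 and 20 of the members' loci against 12 and 9 in the replicate 2 lists. Over all genes the lists of replicate 1 were also the longer ones, with 31194 and 31221 lines against 26568 and 23785.

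At the 8 loci found in every list no difference in fold between the states passed the test. By limma on log2 folds 0 of the 8 were called, as were 0 of all 6055 such loci (0%), of which 231 had an unadjusted p under 0.05, and 0 of the 8 did. The median log2 difference of all loci was -0.10, 3d DM minus GM.

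*Tgfb1* had a locus at each end of its transcript. At the 5′ end the fold was 6.22 and 6.65 in GM, against 4.53 and 5.37 in 3d DM. Both 3d DM values were below both GM values, which held for 21.4% of all loci, while 9.05% had both above. The ratio of 3d DM to GM had a 95% interval of 0.408 to 1.44 (limma adjusted p = 0.999). The peaks behind these folds differed in extent, so the folds are not of the same stretch. In GM replicate 2 the peak was at 25687091-25692406 and in 3d DM replicate 2 at 25687240-25687657. With the median fold over a library's lines the log2 difference was -0.14, against -0.38 with the line of lowest p-value. At the 3′ end, where the peaks of all 4 lists cover the stop codon, the fold was 3.72 and 20.9 in GM, compared with 5.97 and 12.2 in 3d DM. The replicate 2 libraries were the high ones in each state, so the spread within a state was larger than the difference between states (interval of the ratio 0.292 to 3.21). Peaks of replicate 2 also began further upstream, at 25704274 in GM and 25704215 in 3d DM, against 25704898 and 25704869 in replicate 1. These folds are therefore not of the same stretch.

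*Tgfb3*, whose RNA rose most, had a 5′ locus with folds of 6.25 and 4.17 in GM, against 4.85 and 5.79 in 3d DM. At its locus in the 3′ UTR, which reaches the stop codon in 3 lists, the folds were 3.3 and 3.24 in GM, compared with 1.96 and 4.83 in 3d DM. The states overlapped at each of them. The intervals of the ratio were 0.532 to 2.03 and 0.425 to 2.08, in the order given. The folds are not of the same stretch at either locus. In GM replicate 1 they are of a coding peak at 86077604-86077874 and a 3′ UTR peak at 86057463-86057553. In 3d DM replicate 1 the peaks were wider, at 86069875-86079041 and 86057284-86057852. The 5′ locus contains the GGACT shown above for the coding sequence. A further *Tgfb3* locus at the end of the 3′ UTR had folds of 2.52 in GM replicate 2 and 1.91 and 2.73 in 3d DM, and no peak in GM replicate 1.

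*Tgfb2* had its shared locus in the 3′ UTR, around the GGACT shown above, with folds of 7.29 and 4.23 in GM, against 9.17 and 3.62 in 3d DM. Here the replicate 1 libraries were the high ones in each state, the reverse of the *Tgfb1* 3′ end. Their peaks were also the wider ones, at 186624754-186625379 in GM and 186624587-186625514 in 3d DM. Those of replicate 2 were at 186624694-186624843 in GM and 186624617-186624826 in 3d DM, so these folds too are not of the same stretch.

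*Tgfbr2* had folds of 4.0 and 6.6 in GM, compared with 2.18 and 4.28 in 3d DM (interval of the ratio 0.274 to 1.29). These values are not of the same stretch, as lines that skip from the coding sequence to the 3′ UTR joined all *Tgfbr2* peaks into 1 locus: the value of GM replicate 1 is that of a coding peak and the other 3 are of peaks over the stop codon. *Smad3* had folds of 5.69 and 3.04 in GM, against 3.41 and 3.86 in 3d DM at its shared 3′ UTR locus. It had 4.18 and 5.79 in GM, compared with 4.27 in 3d DM replicate 1 at another 3′ UTR locus that had no peak in 3d DM replicate 2. *Smad2* had 3.78 and 2.74 in GM, against 3.35 and 10.0 in 3d DM, where the high value is of a short peak of 3d DM replicate 2 at the 5′ end with a p-value of 0.000138. *Smad7* had its highest fold, 12.7, in the 3′ UTR in 3d DM replicate 1, against 2.48 in GM replicate 1 at the same locus and no peak in the replicate 2 lists.

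**Figure D5:**
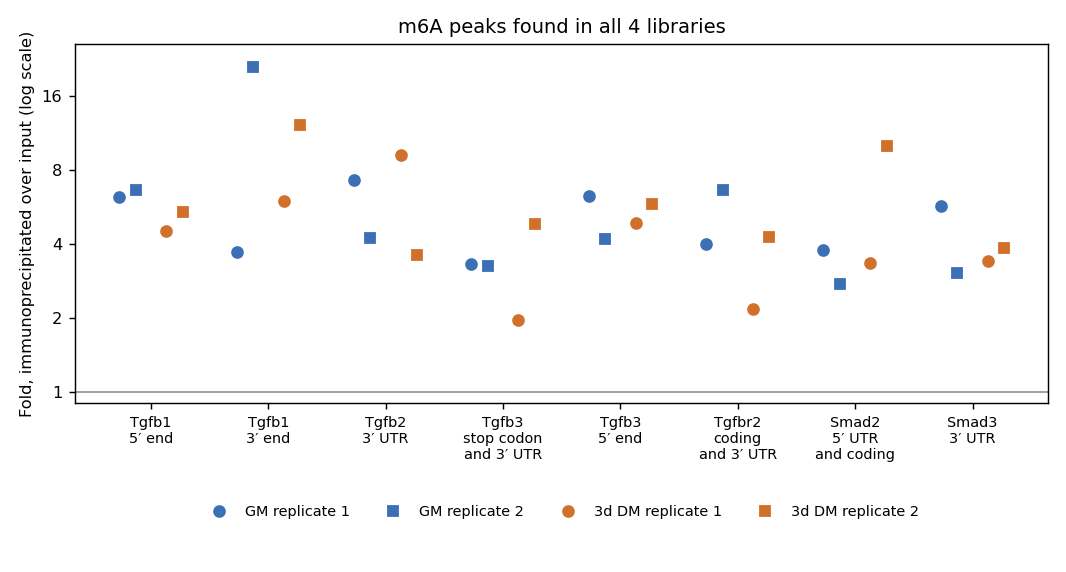
Fold of immunoprecipitated over input RNA (log scale) at the 8 loci with a peak in all 4 lists, 1 point per library, with circles for replicate 1 and squares for replicate 2. The states overlap at every locus but the *Tgfb1* 5′ end, where the GM values (6.22 and 6.65) lie above those of 3d DM (4.53 and 5.37). The peaks of a locus differ in extent between libraries.

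The motifs were also counted under the loci of all genes. Windows of 101 bases of genome centred on the longest shared stretch were read on the strand of the RNA. In them a DRACH site was present in 8 of 8 members' loci and in 90.9% of 5756 loci, and GGACT in 1 of 8 and in 15.9%. Over whole shared stretches GGACT was present in 2 of 8 and in 36.4%, with a median length of 156 bases for the members and 269 for all.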

How the data were processed

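Processed MeRIP-seq and RNA-seq values of C2C12 cells were used, with 2 input and 2 immunoprecipitated libraries each of GM and 3d DM, grouped by their labels. By the submitters' processing notes and the methods, reads were aligned by the authors to mm10 with HISAT2 (version 2.1.0), and gene counts were handled with edgeR. The expression table deposited by the authors holds a normalized signal, titled TMM (trimmed mean of M values). Its columns have nearly equal sums and its low values are not whole, so neither counts nor depth could be recovered, and replicates may have been adjusted to each other. In the peak lists deposited by the authors, exomePeak compared each sample with its own input and gave every peak a p-value and a fold, that is the ratio to input, on a line per protein-coding transcript. The largest p-value in a list was 0.0107. Libraries came from a stranded kit, but the strand setting and annotation of the counting are not given in the sources used here. Predicted genes on the opposite strand overlap exons of *Tgfb2* (80 bp) and *Tgfb3* (up to 257 bp), and 1 on the same strand overlaps those of *Tgfbr3* (297 bp).

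Entrez identifiers were matched to symbols for 93% of 27179 genes. Values of 25.1 or more, which is 2 cpm of a column total, were required in at least 2 input libraries. The 11406 genes left were compared on the log2(value + 1) scale by limma 3.58.1 in R 4.3.3 (trended prior, two-sided), and p-values were adjusted after Benjamini and Hochberg over all of them at 0.05. The fold change on this scale understates that of low genes. The prior degrees of freedom were infinite, so the standard errors follow the trend alone. Median-of-ratios factors were computed over the tested genes. Peak lines of 1 gene and strand that share at least 1 bp of exon were joined into loci, the line with the lowest p-value gave a library's fold, and log2 folds were tested with limma without the trend. Each limma step was tested on simulated data. Python 3.11.15 was used for all other steps.

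All 10 genes are named, with up to 3 called genes per list and direction, all state markers and the 3 genes nearest to the called member of largest change. One gene of the target list is not reported here and was left out of that list's counts and median. The members and lists were chosen with earlier results of these data known. Alternatives were other filters and pseudocounts, limma without the trend, rescaling, a replicate block, stricter peaks, other joining rules, and each library left out. Fits without sharing the spread and with folds centred on each list median were added after seeing the data.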

Additional observations from a re-analysis of the deposited data

How the results depend on the processing

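Of 10 members, 2 were called with the deposited values. The count was 4 under median-of-ratios and under trimmed-mean rescaling, 1 with the filter in 3 libraries (*Tgfb3*, with *Tgfbr2* lost at adjusted p = 0.0505), 1 without the trend (*Tgfb3*, with *Tgfbr2* lost at adjusted p = 0.0752) and 0 to 2 with a library left out. Calls over all genes were 1936 (800 higher, 41.3%), 2644 after median-of-ratios rescaling (1369 higher, 51.8%) and 145 to 1252 with a library left out. Calls in the 4 lists were 13, and 1 to 10 with a library left out. Without sharing of the spread limma called 0 members, 0 listed genes and 0 genes (1501 genes and 2 members at an unadjusted p under 0.05), and each gene then has only 2 residual degrees of freedom. Replicate numbers mark no shared culture in the labels, and same-numbered libraries deviated together only weakly (r = 0.29 for expression, 0.13 for folds). With the replicate block 1 member (*Tgfb3*, adjusted p = 0.000201) and 9 listed genes were called, and genes called fell from 1936 to 1298. With a library left out, log2 fold changes of uncalled members turned sign for *Tgfb1* (-0.23 to 0.42), *Smad2* (-0.51 to 0.04), *Smad4* (-0.62 to 0.058) and *Smad7* (-1.14 to 0.11), and so did log2 differences in fold at the *Tgfb1* 3′ end (-1.29 to 1.198), *Tgfb2* (-0.62 to 0.72), *Tgfb3* near the stop codon (-0.74 to 0.56), *Tgfb3* 5′ end (-0.24 to 0.35) and *Smad3* (-0.65 to 0.26). Centring on list medians turned the *Tgfb1* 3′ end (0.064) and *Tgfb3* near the stop codon (0.023). No member's locus was called under any alternative. The mean number of members with a peak differed by -0.50 between 3d DM and GM, by 1.50 with p-values of at most 1e-05, and by -1.50 to 0.50 with a library left out. Depth is unknown for all libraries, so a missing peak or a low value has no detection limit. Of 196 alternative values for single members and their loci, 165 kept their direction and side of the threshold. Most of these members and loci were uncalled from the start, and staying uncalled counts as kept. The share therefore does not measure how stable the calls of *Tgfb3* and *Tgfbr2* are.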
